A study of Bos taurus with 32 samples.

Results

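Small structural RNAs are short non-coding RNAs that work inside RNA-protein particles. Their adenosines were taken from a table of N6-methyladenosine (m6A) sites in cattle oocytes and early embryos. A site was included when the deposited table gives its gene as snoRNA, scaRNA, snRNA, rRNA, misc_RNA, miRNA, Y_RNA or ribozyme. This rule found 306 of the 65535 listed sites, in 210 gene entries on 30 chromosomes. By type, 177 sites lay in snoRNAs, 53 in snRNAs, 35 in rRNAs, 18 in misc_RNA entries that all carry the symbol Metazoa_SRP, 11 in scaRNAs, 8 in miRNAs, 2 in Y_RNAs and 2 in ribozymes.

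The assay, m6A-SAC-seq, attaches an allyl group to m6A in total RNA and reads the label as a mutation after reverse transcription. The 8 stages were GV oocytes (immature, with a germinal vesicle), MII oocytes (matured in vitro to metaphase II), embryos of 2, 4, 8 and 16 cells, morulae and blastocysts. Follicles measured 3 to 5 mm, maturation took 22 to 23 h, exposure to thawed Holstein semen took 18 h, and embryo culture ended at day 7.5. Each stage had an input and a treated arm with 2 replicates of 200 cells, 32 libraries in all, and ovaries came from a slaughterhouse. No genotype, drug or other treatment is given for any group. All groups share the cattle ovary source, and all embryo groups share in vitro fertilisation and culture. A cell count of 200 can mean fewer embryos at later stages, so stage and amount of starting RNA cannot be told apart.

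Small nucleolar RNAs (snoRNAs) guide chemical modification of other RNAs. Box C/D snoRNAs, with symbols starting with SNORD, pair with ribosomal RNA and direct 2′-O-methylation, and box H/ACA snoRNAs, with symbols starting with SNORA, direct pseudouridylation. Many vertebrate snoRNAs are cut from introns of host genes, and small Cajal body RNAs (scaRNAs) act in the same way on the spliceosomal RNAs U1, U2, U4 and U5. In mammals m6A is placed on the spliceosomal RNA U6 by METTL16, on 18S rRNA by METTL5 and on 28S rRNA by ZCCHC4. Oocytes carry a large store of ribosomes made during growth, and in cattle the main activation of the embryonic genome is placed around the 8-cell to 16-cell stage.

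The table gives 1 score per adenosine and stage, on a scale that is not stated, and no replicate values, so no error can be given and no test between stages was possible. Scores of 0.1 or more were treated as calls. Exact Clopper-Pearson intervals at 95% accompany shares and cover the counting of sites only, since sites of 1 transcript are not independent. Read depth is unknown, and a 0 may mean no methylation or simply no estimate, so fewer molecules and less methylation per molecule cannot be told apart. Of the 306 sites, 284 were called at GV, and the other 22 all lie on the minus strand and were called at MII. The deposited table ends at a spreadsheet's row limit and holds only these. Shares are therefore given over the 284 GV-called sites. Genomic positions follow the deposited table, whose genome build is not given in the sources used here. Strand is given, but how reads of snoRNAs were told from those of their host introns, or reads of near-identical copies from each other, is not given, so values of repeated genes (U6, 5S rRNA, SRP RNA, U3, SNORA73, SNORD22) are uncertain. Among marker genes, 6 of 7 oocyte genes held 151 GV-called sites, of which 99, 64, 89, 52, 12, 3 and 0 were called from MII to blastocyst. For cumulus cells, 2 of 5 genes held 30 sites, of which 12, 4, 9, 2, 0, 0 and 0 were called at those stages. Of all GV-called sites, 34.1%, 7.39%, 22.7%, 9.32%, 6.01%, 4.42% and 7.64% were called at the same stages. Trophectoderm and blastocyst markers held 1 site, in CDX2, called at no later stage, and 0 sites lay in 3 sperm genes. The part of these transcripts in the results below was not tested.

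The sequence held for a site is the scored adenosine with 2 bases on each side. Contexts of some sites of the named RNAs are shown, and other sites of the same RNA can differ. A context is not particular to the RNA named beside it. For example, tgAtc was also found at 4 SRP RNA sites, and tgAtg at 2560 of all listed sites. In each line the scored adenosine is in capitals and T stands for U.
SNORD31, SNORD12, SNORD12C, SNORD21 and SCARNA2: tgAtg
SNORD22: tgAgg
SNORA73: tgAct
U3 and the 5S rRNA: tgAtc
U5: tgAgt
U6: agAtt
SRP RNA: ggAgc
SRP RNA, further sites: ggAtc
5S rRNA, second site: agAcc
unnamed rRNA entry: taAcg
unnamed rRNA entry, highest score: aaAct

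The snoRNA contexts resembled the short boxes that name the families. Box C reads UGAUGA at its core and box D reads CUGA, so an adenosine of either box follows U and G. Among 96 SNORD sites with a complete context, 66 (68.8%) had T and G before the scored adenosine, against 20.7% of the whole table. The 5 bases tgAtg, which fit inside box C, were found at 18 SNORD sites (18.8%) in 18 genes, against 4.38% of the table. Box H/ACA RNAs, which lack these boxes, had T and G before the adenosine at 12 of 33 sites (36.4%) and tgAtg at 1 of them. These are matches of letters, and the distance of a site from the ends of its RNA was not analysed here.

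Among 12 SNORD genes with several sites that included tgAtg, this context was the site nearest the 5′ end in 8 and the site nearest the 3′ end in 3. Box C lies near the 5′ end of a box C/D snoRNA and box D near the 3′ end. The DRACH motif of messenger RNA methylation (A, G or T, then A or G, then AC, then A, C or T) covered 56 of 303 small RNA sites with a context (18.5%), against 33.8% of the table. No site of the 31 in U6 was DRACH, and 12 of 33 SNORA sites (36.4%) were. A G preceded the adenosine at 288 of 303 small RNA sites and at 95.8% of all sites with a context. The letters ACAGA, which hold the METTL16 site of U6 in human, were found at 0 small RNA sites and at 0 sites of the table.

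Small structural RNA sites were called again at later stages more often than the listed sites as a whole, and from the 8-cell stage on the 2 shares were furthest apart. At MII the score reached 0.1 at 146 of these 284 (51.4%, with an interval of 45.4 to 57.4), against 34.1% of all 60417 GV-called sites. The share was 28.9% at the 2-cell stage (23.7 to 34.5) against 7.39% of all, and 42.3% at the 4-cell stage (36.4 to 48.2) against 22.7% of all. At MII and 4-cell the excess was not seen in every class. Of box C/D sites 39.6% (29.5 to 50.4) were called at MII and 30.8% (21.5 to 41.3) at 4-cell. For box H/ACA the shares were 44.8% (26.4 to 64.3) and 31% (15.3 to 50.8), and all these intervals include the background. Over all small RNA sites the share was 58.5% at the 8-cell stage (52.5 to 64.2), where the background was 9.32%. At the 16-cell stage 64.1% were called (58.2 to 69.7) with a background of 6.01%, at the morula stage 63.7% (57.8 to 69.3) with 4.42%, and at the blastocyst stage 66.5% (60.7 to 72.0) with 7.64%. Between the 4-cell and 8-cell stages the 2 sets of sites moved apart, since 66 small RNA sites were called at 8-cell and not at 4-cell and 20 the other way round, while the numbers over all sites were 2035 and 10108. Small structural RNAs therefore made up 4.10% of all GV-called sites still called at the blastocyst stage, and 0.470% of those called at GV.

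**Figure D1:**
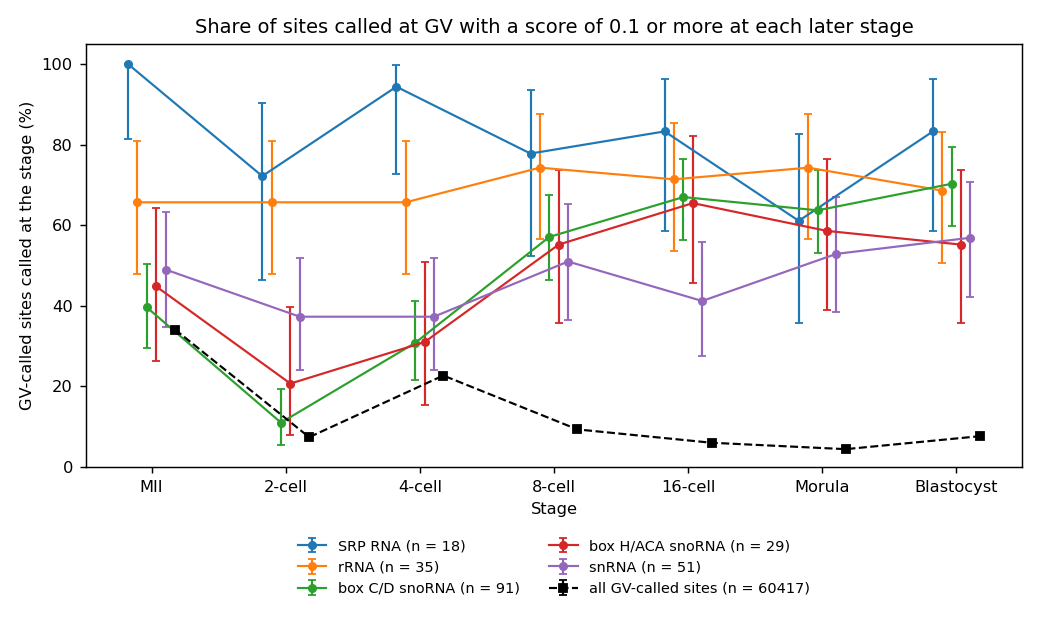
Share of GV-called sites with a score of at least 0.1 at each later stage (percent, y axis) for 5 classes of small structural RNA and for all GV-called sites, with exact 95% intervals for the counting of sites. Box C/D sites lay at 11% at the 2-cell stage, at 57.1% at the 8-cell stage and at 70.3% at the blastocyst stage, rRNA sites between 65.7% and 74.3%, and all GV-called sites at 7.64% at the blastocyst stage.

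Over all 306 sites, 284, 168, 84, 126, 172, 188, 186 and 197 were called from GV to blastocyst. Counted per gene rather than per site, 198, 125, 64, 95, 128, 139, 137 and 141 of the 210 gene entries had a called site at these stages. Long non-coding RNAs and introns of protein-coding genes did not have such shares. At the blastocyst stage 8.01% of 487 lncRNA sites and 5.79% of 1778 intronic sites called at GV were called. Of the 284 small RNA sites, 32 (11.3%) were called at GV and nowhere else, against 52.0% of all sites, and 165 (58.1%) were called at 5 stages or more, against 5.29%.

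Box C/D snoRNAs had their lowest number of calls at the 2-cell stage. From GV to blastocyst 91, 36, 10, 28, 52, 61, 58 and 64 of the 91 GV-called sites were called. In shares, this is 11% at the 2-cell stage (5.40 to 19.3), 57.1% at 8-cell (46.3 to 67.5) and 70.3% at blastocyst (59.8 to 79.5). A score of exactly 0 was given to 76 of the 91 sites at 2-cell (83.5%), to 29 at 8-cell (31.9%) and to 16 at blastocyst (17.6%). Over all GV-called sites the shares at 0 were 92.2%, 90.1% and 91.6% at these stages. A 0 at the 2-cell stage, as given for single sites below, is thus not particular to these RNAs. The share of box C/D sites called at 2-cell lay near the background of 7.39%, which its interval includes.

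Most box C/D sites that were missing early were called later. Of 59 sites called at neither the 2-cell nor the 4-cell stage, 48 (81.4%) were called at 1 or more of the last 4 stages and 19 at all of them. Over all GV-called sites the same count was 4977 of 45076 (11%), with 176 at all of the last 4. Between the 4-cell and 8-cell stages 27 box C/D sites were called at 8-cell only and 3 at 4-cell only.

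The box C/D RNA with most calls over the 8 stages was SNORD22 at its first copy on chromosome 29, minus strand, with 5 sites between positions 41155384 and 41155493. It had 5, 2, 1, 3, 4, 4, 3 and 4 called sites from GV to blastocyst. Its site at 41155493 scored 0.241, 0.201, 0.209, 0.193, 0.187, 0.188, 0.202 and 0.220, so it was called at every stage with little spread. The second SNORD22 copy held a site at 41156590 with 1.38 at GV, 1.25 at MII, 0 at 2-cell, 1.5 at 4-cell, 1.65 at 8-cell, 1.14 at 16-cell, 1.12 at morula and 1.52 at blastocyst. That site stayed above 1 at 7 stages and was missing at the 2-cell stage.

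Both SNORD22 copies belong to a run of 6 entries over positions 41155384 to 41158064, with SNORD31, SNORD30, SNORD27 and SNORD25. In human these snoRNAs lie in introns of SNHG1, a host gene whose spliced RNA has no known protein. The run had 16, 7, 3, 5, 11, 9, 9 and 9 called sites of 16. SNORD31 had a tgAtg site at 41155825 that was called at every stage, with 0.254 at GV, 0.136 at 8-cell as its lowest and 0.190 at blastocyst. SNORD25, at 41158042, was at 0 at the 2-cell and 4-cell stages and scored 0.286 at GV, 0.422 at MII and between 0.413 and 0.556 at the last 4 stages. Neighbours 3 bases apart in SNORD31 differed, since the site at 41155822 was at 0 at 4-cell, 8-cell and 16-cell.

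SNORD12, SNORD12B and SNORD12C on chromosome 13, plus strand, positions 77375839 to 77377102, had 8, 4, 0, 5, 7, 7, 7 and 8 called sites of 8. Their human counterparts lie in introns of ZFAS1. The SNORD12 site at 77377036 scored 0.335 at GV, 0.0769 at MII, 0 at 2-cell, 0.258 at 4-cell and 0.282, 0.347, 0.351 and 0.372 at the last 4 stages. The SNORD12C site at 77375839 was at 0 at MII and the 2-cell stage and lay between 0.190 and 0.283 at the others. All 3 genes thus lacked calls at the 2-cell stage and had at least 1 at each of the last 4 stages.

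SNORD87 on chromosome 14, in human a resident of SNHG6, held the box C/D site with the highest GV score among those called at all 8 stages. Its site at 31105157 scored 0.482, 0.531, 0.441, 0.736, 0.890, 0.510, 0.643 and 0.865 from GV to blastocyst. The other SNORD87 sites were at 0 at MII and at the 2-cell stage. The 4 box C/D sites called at every stage lay in SNORD87, SNORD31, SNORD22 and SNORD14, with a ratio of highest to lowest stage between 1.29 and 2.02.

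SNORD14, also known as U14, which takes part in the cleavage of the 18S rRNA precursor, had 2 copies on chromosome 15. The site at 33679553 was called at every stage, with 0.173 at GV, 0.285 at MII, 0.185 at 2-cell and 0.189 at blastocyst. In the other copy the site at 33680871 was called at MII, 2-cell and 4-cell, at 0.231, 0.188 and 0.624, and was at 0 elsewhere. That site was at 0 at GV and is listed through its MII call. With its neighbour at 33680896 counted, this copy had 1 called site at every stage. Whether the sites named here lie at the same position of the 2 copies is not known.

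SNORD15 on chromosome 15 and SNORD21 on chromosome 3, whose human counterparts lie in introns of RPS3 and RPL5, each had 17 calls summed over the stages. The SNORD15 site at 54597723 scored 0.440 at GV, 0.394 at MII, 0 at 2-cell and 4-cell, and 0.481, 0.384, 0.339 and 0.488 at the last 4. The SNORD21 site at 50633314 was at 0 at 2-cell only and reached 0.537 at morula. In SNORD65 on chromosome 19 the site at 33210050 scored 0.230 at GV, 0.208 at MII, 0 at 2-cell and 4-cell, and 0.229, 0.217, 0.277 and 0.216 after that. The same course, called at GV and at the last 4 stages with 0 at the 2-cell stage, was seen at these sites of SNORD15, SNORD65 and, with a further call at 4-cell, SNORD21.

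A further run, on chromosome 11 at positions 104256305 to 104258653, differed. Its SNORD24 and SNORD36 entries had 5, 0, 0, 0, 0, 2, 2 and 2 called sites, so calls first came back at the 16-cell stage. SNORD24 and SNORD36 lie in introns of RPL7A in human. A second SNORD24 entry on chromosome 16, position 55237206, was called at GV, MII and 2-cell at 0.182, 0.221 and 0.276, and again from 16-cell on. In all, 18 runs of neighbouring genes, with gaps of at most 5000 bases, held 48 of the 124 snoRNA and scaRNA entries and 79 of their 188 sites.

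The highest score of any snoRNA site was that of SNORD83 on chromosome 23, position 27753614, with 5.67 at GV, 5.67 at MII, 0 at 2-cell and 4-cell, 8.40 at 8-cell, 6.04 at 16-cell, 4.31 at morula and 3.03 at blastocyst. SNORD83A on chromosome 5, position 110748081, lay between 0.247 and 0.318 at 7 stages and at 0 at 2-cell. Of the 12 SNORD sites called at the 2-cell stage, SNORD67 on chromosome 15 at 76693726 had the highest score there, 2.10, and was at 0 at MII, 16-cell and blastocyst. These single-site courses have no replicate check.

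SNORD sites with the letters of box C or D and those without both had their lowest count at the 2-cell stage. Of the 15 GV-called tgAtg sites, 4, 1, 4, 9, 12, 9 and 13 were called from MII to blastocyst. Of 43 other sites with T and G before the adenosine, 15, 6, 9, 18, 23, 22 and 25 were called. The 29 SNORD sites without these letters gave 13, 3, 11, 21, 22, 23 and 22. Of all GV-called sites 34.1%, 7.39%, 22.7%, 9.32%, 6.01%, 4.42% and 7.64% were called at these stages. At 2-cell the shares of the SNORD groups were 6.67%, 14% and 10.3%, with intervals that include the background. At MII they were 26.7%, 34.9% and 44.8%, again with intervals that include it. Of the 58 sites with T and G, 46.6% were called at 8-cell (33.3 to 60.1) and 53.4% at morula (39.9 to 66.7), and of the 29 without, 72.4% (52.8 to 87.3) and 79.3% (60.3 to 92.0), a difference that was not tested. Median GV scores were 0.165 for tgAtg sites, 0.175 for the other TGA sites and 0.241 for the sites without.

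U3, the box C/D RNA that binds the 18S rRNA precursor and is needed for its processing, had 2 gene entries with 2 sites each. All 4 sites were called at GV and at every later stage but the 2-cell stage, where all 4 were at 0. On chromosome 11 the site at 74803736 scored 0.226 at GV, 0.185 at MII and between 0.192 and 0.237 from 4-cell to blastocyst, and the site 50 bases 3′ of it lay between 0.276 and 0.542. On chromosome 27 the site at 17339255 lay between 0.213 and 0.290 at these stages, and its neighbour, also 50 bases 3′, was at 0.151 at GV, 0.432 at 8-cell and 0.303 at blastocyst. Both copies had the same spacing and the same first context, tgAtc, so their reads may not be separate.

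A group of 4 unnamed snoRNA entries on chromosome 19, minus strand, positions 9572709 to 9605169, chosen after their values were seen, had the same course. Each has a tgAtc site, and these were called at 3, 4, 0, 4, 4, 4, 4 and 4 of 4 from GV to blastocyst. Blastocyst scores lay between 0.162 and 0.436 and GV scores between 0.0939 and 0.273. The site at 0.0939 is listed only through its MII call, so its missing GV call and its MII call were set by the listing. In 1 of the 4 entries a tgAgt site followed 49 bases 3′ of the tgAtc site. The deposited table gives these entries no name, and none is given here.

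Box H/ACA snoRNAs had shares like those of box C/D, with wider intervals. Of 29 GV-called sites 13, 6, 9, 16, 19, 17 and 16 were called from MII to blastocyst, or 20.7% at 2-cell (7.99 to 39.7), where the background was 7.39%, 55.2% at 8-cell (35.7 to 73.6) and again 55.2% at blastocyst. None of them was called at all 8 stages. SNORA73, also known as U17 or E1 and needed for 18S rRNA processing, had 3 copies on chromosome 2 within positions 124915566 to 124917428. Each copy had 1 tgAct site, and all 3 were called at 7 stages and at 0 at the 2-cell stage. The copy at 124917428 scored 0.191 at GV, 0.221 at MII and between 0.163 and 0.237 from 4-cell on.

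SNORA62 on chromosome 22 had the most H/ACA calls, 10 over its 3 sites, and its site at 12696359 was at 0 at 2-cell only. SNORA28 on chromosome 21 had 9 over 3 sites, and its site at 67991372 was at 0 from MII to 4-cell and between 0.201 and 0.259 after that. The site with the highest scores was in SNORA66 on chromosome 3, position 50630451, with 1.06 at GV, 0 at MII, 2.36 at 2-cell, 0 at 4-cell and 2.10, 2.12, 1.83 and 2.25 at the last 4 stages. SNORA58B on chromosome 3, position 16263681, scored 0.462 at GV, 0 at 2-cell, 0.828 at 8-cell and 0.657 at blastocyst. At 16 H/ACA sites with calls at GV and blastocyst, the blastocyst score over the GV score had a median log2 ratio of 0.38, and 12 of the 16 were higher at blastocyst, against 2875 of all 4613 sites (median 0.19). At morula the median log2 ratio to GV of the H/ACA sites was -0.21, with 5 of 17 higher, against 1669 of all 2672 sites (median 0.19).

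Entries typed scaRNA had no call at the 2-cell stage. Of their 11 GV-called sites, 7, 0, 6, 6, 9, 9 and 10 were called from MII to blastocyst, beside 34.1%, 7.39%, 22.7%, 9.32%, 6.01%, 4.42% and 7.64% of all GV-called sites. The 2-cell interval, 0 to 28.5%, includes its background. SCARNA2 on chromosome 3, which guides modification of U2 in human, had 4 sites between 34281213 and 34281238, all at 0 at the 2-cell stage. Its site at 34281213 scored 0.237, 0.218, 0, 0.175, 0.189, 0.208, 0.226 and 0.196 from GV to blastocyst. An unnamed scaRNA on chromosome 25, ENSBTAG00000044466, had 1.12 at GV at position 33563369, 0 at MII and 2-cell, 1.01 at 4-cell and 0.481 at blastocyst. SCARNA11 had its site at 103840099 on chromosome 5 at 0.558 at GV, 0.616 at 16-cell, 0 at morula and 0.725 at blastocyst, which is no steady course. The remaining entries were ENSBTAG00000044861 with 9 calls over 2 sites and ENSBTAG00000051849, called at GV only.

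Further scaRNA genes are typed as snoRNA in the table. SCARNA10 and SCARNA12 on chromosome 5 were among them, and the 11 GV-called SCARNA sites under all types gave 6, 1, 4, 4, 6, 9 and 9 calls. At the SCARNA10 site 103893720 the scores were 0.507 at GV, 0.413 at MII, 0 from 2-cell to 8-cell, 0.278 at 16-cell, 0.258 at morula and 0.327 at blastocyst. Both SCARNA12 sites were called at GV and then first at morula.

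**Figure D2:**
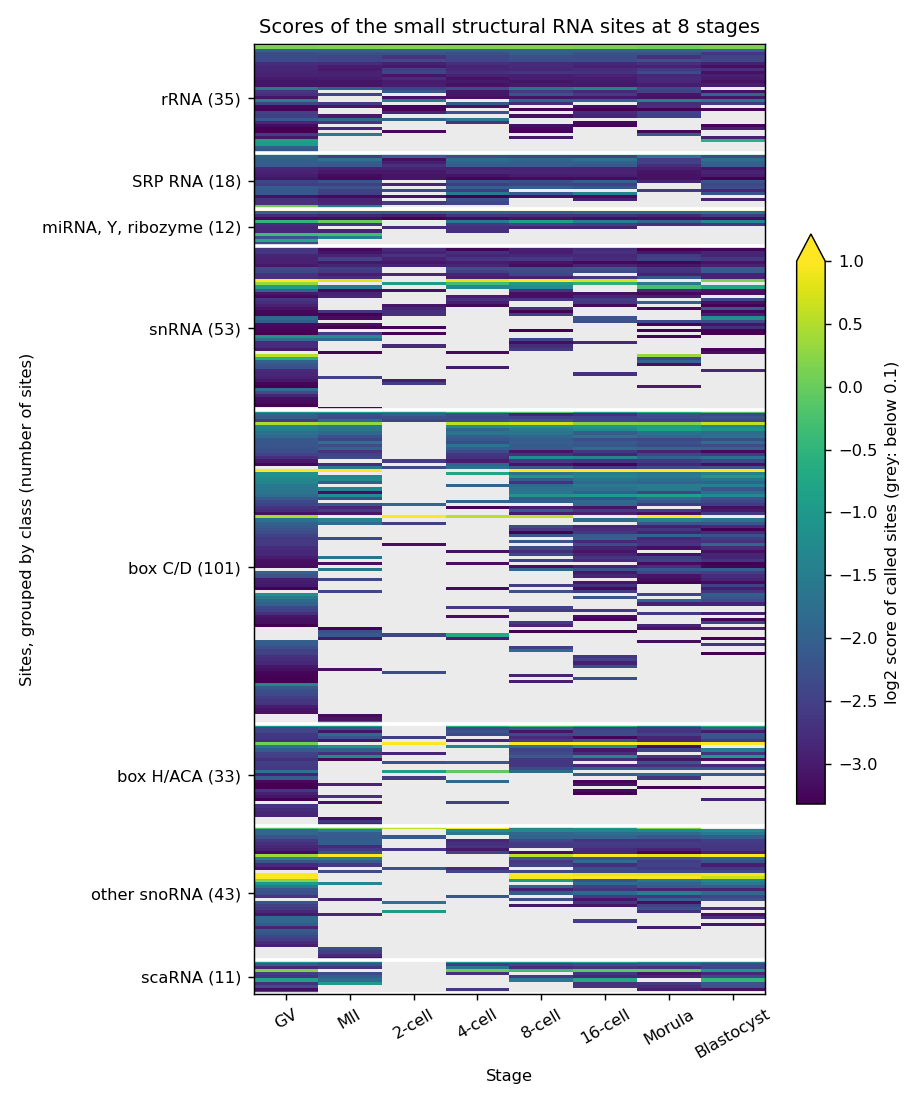
Scores of the 306 sites (rows, grouped by class and ordered by the number of stages called) at the 8 stages (columns), as log2 of the score, with scores below 0.1 in grey and the colour scale ending at a log2 score of 1. The 101 box C/D sites are mostly grey at the 2-cell stage, with 12 called, and the 35 rRNA sites are mostly coloured throughout.

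The snRNA entries comprise spliceosomal snRNAs, which recognise splice sites and form the catalytic centre, and 4 unnamed entries with 5 sites. Of 51 GV-called sites 25, 19, 19, 26, 21, 27 and 29 were called from MII to blastocyst. In shares this is 37.3% at 2-cell (24.1 to 51.9) with a background of 7.39%, 51.0% at 8-cell (36.6 to 65.2) with 9.32% and 56.9% at blastocyst (42.2 to 70.7) with 7.64%. Many of their scores lay close to the threshold, since 28 of 51 (54.9%) were below 0.15 at GV, against 24.2% of all GV-called sites. With scores so near 0.1 a call can turn on a small difference.

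U6, the snRNA of the catalytic centre, had 31 sites in the table, 23 of them with the context agAtt in 23 separate gene entries. At these 23 the median score, zeros included, was 0.123 at GV, 0.1 at MII, 0.0938 at 2-cell, 0.0659 at 4-cell, 0.0996 at 8-cell, 0 at 16-cell, 0.101 at morula and 0.103 at blastocyst. At the 16-cell stage 13 of the 23 were at 0, and at morula and blastocyst 2 each. Copies on chromosomes 2 (31120413 and 109948308) and 12 (4082069) were called at all 8 stages, the last between 0.104 and 0.132. In 1 copy an agAag site lay 3 bases 5′ of agAtt. How alike the U6 copies are beyond the shared context is not known here. The 23 agAtt sites may therefore not be separate measurements, although their GV scores lay between 0.0825 and 0.657.

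U5, which holds the exons in place, had 4 gene entries and the same context, tgAgt, in all 4. The site on chromosome 10 at 7057655 was called at every stage, with 0.249 at GV, 0.162 at MII, 0.205 at 2-cell, 0.292 at 16-cell and 0.270 at blastocyst. The other 3 were at 0 at the 2-cell stage. All 4 were called at the 4-cell, 8-cell, 16-cell and blastocyst stages, between 0.154 and 0.292.

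U1 and U2, which pair with the 5′ splice site and the branch point, had fewer lasting calls. Of 5 U1 sites 1, on chromosome 19 at 9651749, was called at 7 stages, between 0.128 and 0.228. Of the U2 sites, 1 on chromosome 19 at 43280641 scored 2.30 at GV, 1.77 at MII, 0 at 2-cell, 1.77 at 4-cell, 2.13 at 8-cell, 1.71 at 16-cell, 0 at morula and 1.09 at blastocyst. The single U4 site, on chromosome 9 at 9502552, was called at 5 stages with its highest score, 0.254, at morula. Unnamed snRNA entries held 3 sites called at all 8 stages, with a ratio of highest to lowest stage between 1.21 and 1.37. Of these, ENSBTAG00000064082 and ENSBTAG00000042124 share the context ggAtg.

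The number of called ribosomal RNA sites changed little from MII to blastocyst, but its parts differed. An unnamed entry had 9 of 14 sites called at MII and 14 at blastocyst. For 5S rRNA, 14 of 20 sites were called at MII and 9 at blastocyst. Neither part changed steadily at the stages between. Of the 35 GV-called rRNA sites 23, 23, 23, 26, 25, 26 and 24 were called from MII to blastocyst, that is 65.7% at 2-cell (47.8 to 80.9), where the background was 7.39%, 74.3% at 8-cell (56.7 to 87.5) with 9.32% and 68.6% at blastocyst (50.7 to 83.1), where it was 7.64%. One entry held 14 of them, ENSBTAG00000060382, typed rRNA with no symbol, on the minus strand of chromosome 27. Its sites run from position 6221510 to 6217949, between 1212 and 4773 bases 3′ of the site in the 5.8S rRNA at 6222722. In the mammalian rRNA unit the 28S rRNA lies 3′ of the 5.8S rRNA, but the table does not name this entry.

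Of its 14 sites 14, 9, 12, 10, 14, 13, 12 and 14 were called from GV to blastocyst, and 9 at all 8 stages. The agAga site at 6221129 scored 0.255, 0.253, 0.255, 0.254, 0.258, 0.258, 0.251 and 0.267, a ratio of highest to lowest of 1.07, the smallest of the 38 small RNA sites called throughout. The taAcg site at 6218300 scored 1.08, 1.14, 1.15, 1.12, 1.13, 1.10, 1.04 and 1.11. The highest of the 14 was the aaAct site at 6220108, with 4.49, 2.30, 3.08, 4.00, 4.83, 4.44, 2.80 and 4.05, and it varied by a ratio of 2.10. The scale of the score is not stated, so a value above 1 cannot be read as a fraction of molecules.

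The other sites of the entry lay nearer to the threshold. The agAcg site at 6221510 lay between 0.186 and 0.217 and the agAcc site at 6218203 between 0.116 and 0.127. A ggAgc site at 6219233 was at 0 at MII and 4-cell and between 0.255 and 0.368 at the other stages. The site in the 5.8S rRNA scored 0.160 at GV, 0.0988 at MII, 0.228 at 2-cell and 0.116 at blastocyst, and so was just below a call at MII.

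**Figure D3:**
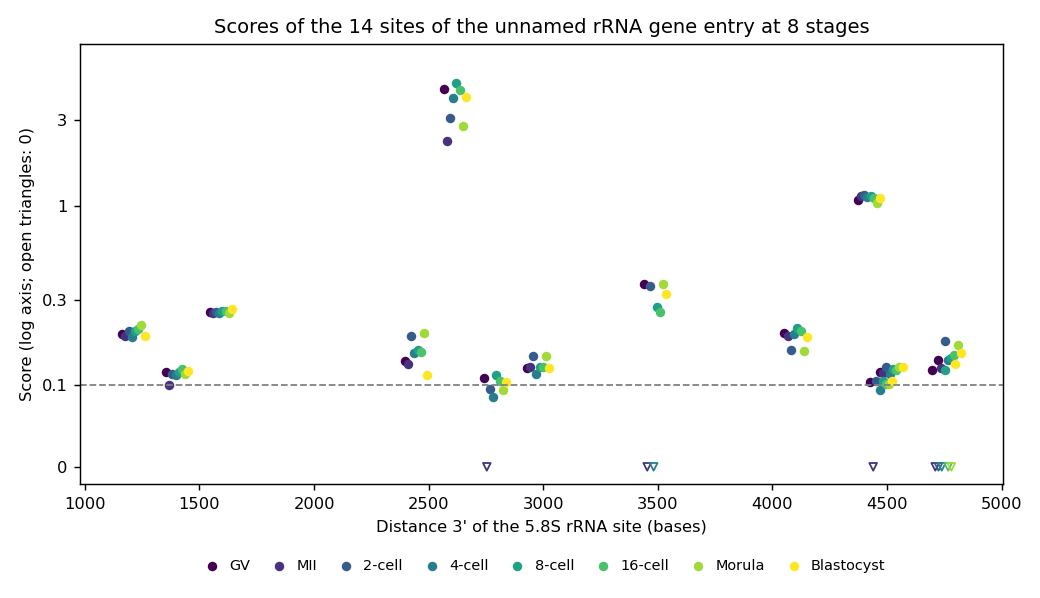
Scores (log axis, with 0 drawn as open triangles at the bottom) of the 14 sites of the unnamed rRNA entry against their distance 3′ of the 5.8S rRNA site in bases, with the 8 stages spread sideways at each site and the calling score of 0.1 dashed. The site 4422 bases 3′ lies between 1.04 and 1.15 at all stages and the site 2614 bases 3′ between 2.30 and 4.83.

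5S rRNA, the RNA of the large ribosomal subunit that is transcribed apart from the others, had 20 sites in copies on several chromosomes. Of these 14, 10, 12, 11, 11, 13 and 9 were called from MII to blastocyst, and 5 at all 8 stages. The context tgAtc was found in 8 copies and agAcc in 8, and in 3 copies with both the agAcc site lay 48 bases 3′ of tgAtc. The median score of the 8 tgAtc sites lay between 0.122 and 0.143 at every stage. That of the 8 agAcc sites was 0.178 at GV and between 0.0405 and 0.119 later. On chromosome 27 both sites, at 99535 and 99583, were called throughout, between 0.130 and 0.151 and between 0.113 and 0.143.

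The Metazoa_SRP entries stand for the RNA of the signal recognition particle, which pauses translation of secreted and membrane proteins and brings the ribosome to the endoplasmic reticulum. Each of the 18 sites had a call at MII as well as GV, and 13, 17, 14, 15, 11 and 15 from 2-cell to blastocyst, so 72.2% at 2-cell (46.5 to 90.3) with 7.39% in the background. Called at all 8 stages were 9 of the 18. Positions recurred among copies. In 3 copies a ggAtc site lay 90 bases 5′ of a ggAgc site, and in 2 copies a tgAtc site lay 79 bases 3′ of it.

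Scores at the ggAgc site were compared over 7 copies. Their median was 0.236 at GV, 0.222 at MII, 0.113 at 2-cell, 0.248 at 4-cell, 0.244 at 8-cell, 0.234 at 16-cell, 0.136 at morula and 0.214 at blastocyst. All 7 were lower at 2-cell than at GV, and all 7 were lower at morula than at GV, while 6 of 7 were higher at 4-cell. In the copy on chromosome 10, plus strand, the ggAgc site at 42629699 scored 0.236, 0.230, 0.15, 0.248, 0.244, 0.234, 0.148 and 0.248. In the same RNA the tgAtc site at 42629778 lay between 0.109 and 0.129, and its 2-cell and morula scores were 0.119 and 0.116. All 7 are listed through their call at GV, and as copies share sequence they may rest on the same reads.

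Of the other SRP copies, 1 on the X chromosome had the highest score called throughout, a tgAtc site at 17919987 with 0.631 at GV, 0.233 at 2-cell, 0.815 at 16-cell and 0.747 at blastocyst. Another, on chromosome 12 at 24196602, scored 1.05 at GV and 0.364 at MII and was at 0 at every later stage. A site typed miRNA, ENSBTAG00000059768 on chromosome 10 at 42820527, lies 79 bases 3′ of the ggAgc site of an SRP entry and has the context tgAtc. This is the spacing of the SRP copies, and its scores lay between 0.242 and 0.305 at all 8 stages.

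**Figure D4:**
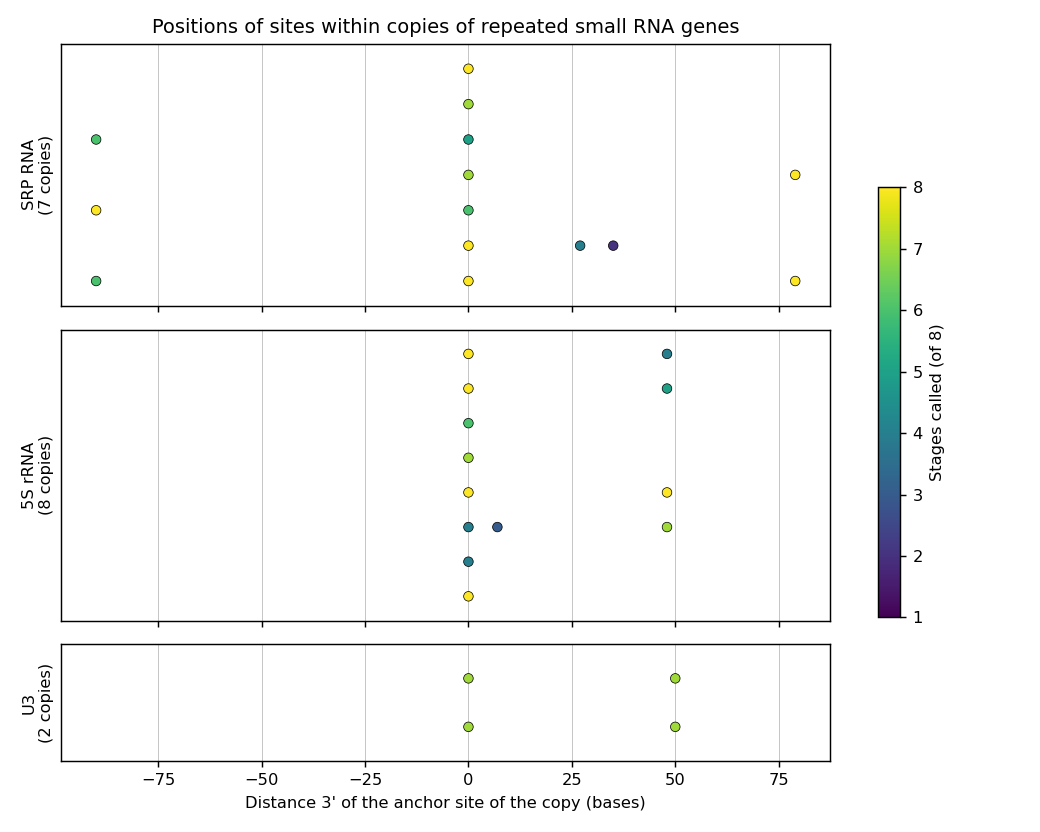
Position of each site (points) relative to an anchor site in bases, for SRP RNA copies with a ggAgc anchor, 5S rRNA copies with a tgAtc anchor and U3 copies with a tgAtc anchor, 1 row per gene entry, coloured by the number of stages called. Sites recur at 90 bases 5′ and 79 bases 3′ in SRP RNA, at 48 bases 3′ in 5S rRNA and at 50 bases 3′ in U3.

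RNase P, which cuts the 5′ leader off transfer RNA precursors, had 1 site on chromosome 10 at 26778897, with 0.151, 0.162, 0, 0.167, 0.183, 0.176, 0.152 and 0.160 from GV to blastocyst. RNase MRP, its relative in rRNA processing, had 1 site on chromosome 8 at 59833307, called at GV, MII and 4-cell at 0.142, 0.135 and 0.15 and at 0 elsewhere. Neither was called at the 2-cell stage. The 2 Y_RNA entries, whose RNAs bind the Ro protein, lie on chromosome 4. The site at 112179913 was called at all 8 stages between 0.1 and 0.116, and that at 112160103 was at 0 at MII, morula and blastocyst.

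Of the 8 miRNA sites, 3 were called at all 8 stages. The site in bta-mir-2379 on chromosome 23 at 31019574 scored 2.31, 1.80, 1.68, 2.36, 2.06, 1.97, 2.08 and 1.67. That in bta-mir-7857-2 on the same chromosome was at 0 at 2-cell only and had 1 at MII as its highest. bta-mir-2416 and MIR1306 were called at GV and MII alone, and bta-mir-2459 and ENSBTAG00000056892 at GV alone. ENSBTAG00000050794 on chromosome 8 lay between 0.125 and 0.171 throughout. Total RNA was sequenced, so a site may lie in the precursor or in a host transcript rather than in the mature miRNA.

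Over all classes 38 small RNA sites were called at all 8 stages, 13.4% of the 284, against 250 of 60417 (0.414%) over all GV-called sites. They make up 15.2% of those 250. By class they were 14 rRNA sites, 9 SRP sites, 7 snRNA sites, 4 SNORD sites, 3 miRNA sites and 1 Y_RNA site. The ratio of highest to lowest stage had a median of 1.32 at the 38 and 1.74 at the 250, and it was below 1.5 at 25 of the 38 (65.8%) and at 33.6% of the 250.

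**Figure D5:**
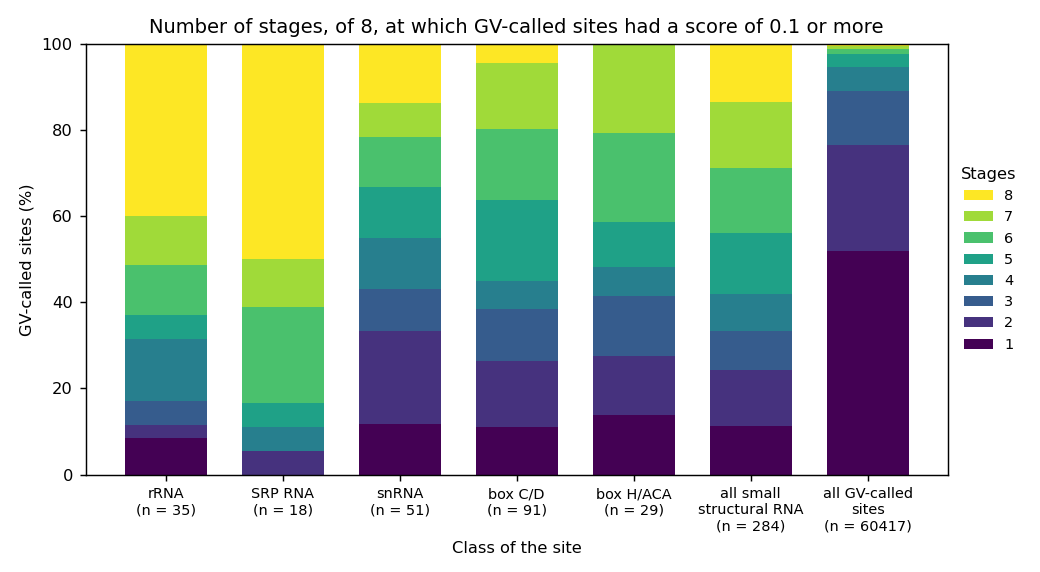
Number of stages, of 8, at which GV-called sites had a score of at least 0.1, as a percentage of the sites of each class (stacked bars). The 8-stage segment is 40.0% of the 35 rRNA sites, 50.0% of the 18 SRP sites and 0.414% of all 60417 GV-called sites.

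Score levels differed little where a site was called at both stages. The median score at GV was 0.173 at the 284 small RNA sites (quartiles 0.132 and 0.247) and 0.216 at all GV-called sites, and 37.7% of small RNA scores were below 0.15, against 24.2%. At sites called at both stages, the median log2 ratio of the 8-cell to the GV score was 0.04 over 166 small RNA sites and 0.16 over all 5628. For blastocyst over GV it was -0.03 over 189 small RNA sites, with quartiles -0.28 and 0.24, and 0.19 over all 4613. Among small RNA sites 89 of the 189 were higher at blastocyst than at GV.

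MII and GV calls could be compared in both directions on the minus strand of chromosomes 10 to 19. There 42 small RNA sites were called at MII and 50 at GV, with 20 called at both, 22 at MII only and 30 at GV only. Over all sites outside ribosomal protein genes of the RPL and MRPL names, 8217 were called at MII and 11505 at GV, with 3848 at both, 4369 at MII only and 7657 at GV only. At MII 40.0% of the GV-called small RNA sites were called (26.4 to 54.8), against 33.4% of those sites, which the interval includes. Box C/D RNAs had 14 sites called at MII and 22 at GV, with 4 in common and 10 at MII only. In SNORD65 on chromosome 19 the sites at 33210001 and 33210064 were at 0 at GV and scored 0.190 and 0.313 at MII. Both are listed only through their MII call, so this contrast follows from the listing.

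Transcripts of the proteins that work with these RNAs had their own GV-called sites. The box C/D proteins FBL, NOP56, NOP58 and SNU13 had 21 such sites, of which 4 were called at MII, where the background was 34.1%, and 4 (19%) at blastocyst, where it was 7.64%. Of 28 sites in the H/ACA proteins, 15 were called at MII and 5 (17.9%) at blastocyst. Among the H/ACA proteins the pseudouridine synthase DKC1 held 25 sites, with 14 called at MII and 5 at blastocyst. The spliceosomal protein list had 121 sites in 18 of 25 genes, with 43 called at MII and 14 (11.6%) at blastocyst, and the signal recognition particle list had 35 in 3 of 6 genes, with 13 at MII and 1 (2.86%) at blastocyst. A list of 6 methyltransferase genes had 7 GV-called sites in 2 genes. METTL16, the U6 methyltransferase, had 5 of them, with 0 called at every later stage. PCIF1 had 2, called at MII and at no later stage, and METTL5 and ZCCHC4 had 0 sites. Of all GV-called sites 34.1% were called at MII and between 4.42% and 22.7% after that.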

How the data were processed

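Total RNA of 32 libraries (8 stages, input and treated, 2 replicates each) was labelled by m6A-SAC-seq. The authors deposited 1 table with a score for each adenosine and stage, its strand, gene type, symbol and 5-base context. The scale of the score is not given in the sources used here, nor are the site caller, the genome build or how arms and replicates were joined. The submitters' processing notes name STAR 2.5.3a and Trimmomatic 0.39. The table ends at 65535 sites, and it holds the sites called at GV and a part of those called at MII and not at GV. The 8 columns were taken as pooled stage values, with 0 columns of sample values left without a stage, and depth is unknown.

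Members were chosen by gene type, families by symbol, and members and lists were chosen with earlier results of these data known. Box C/D comprises SNORD and U3, box H/ACA comprises SNORA. Named genes were the 10 with most calls summed over the stages in each large class, all genes of classes with at most 10, and sites called at all 8 stages. Since snoRNAs form 1 class, all box H/ACA genes fall outside this rule and were named after their values were seen. The same holds for SNORD12B, SNORD24, SNORD25, SNORD27, SNORD30, SNORD36, SNORD67, SNORD83, SNORD83A, SCARNA10, SCARNA12, U1, U2 and U4. No p-value is given, as no replicate values exist. Other settings tried were a threshold of 0.2, every score over 0, DRACH contexts, GV-called sites, named members, genes in place of sites and leaving out the gene with most sites. RefSeq entries matched 0 of 210 gene entries by identifier, so RNA positions and longer sequences were not used here. The calculations were tested on simulated data. Scores were handled with pandas 2.3.3 and numpy 2.4.6 in Python 3.11.15, intervals came from scipy 1.17.1 and figures from matplotlib 3.10.9.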

Additional observations from a re-analysis of the deposited data

How the results depend on the processing

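With a score of at least 0.2, small structural RNA sites called from GV to blastocyst numbered 117, 77, 26, 56, 77, 79, 68 and 81, and 7 were called at all 8 stages. With DRACH contexts alone they numbered 53, 30, 17, 27, 35, 37, 39 and 33, and the median blastocyst score was 0.287. The share of GV-called sites called again, at 0.2 or more at both stages, was 17.9% at 2-cell, 35.9% at 4-cell, 49.6% at 8-cell, 53.0% at 16-cell, 47.0% at morula and 54.7% at blastocyst. Over all GV-called sites these shares were 6.30%, 17.8%, 7.97%, 5.68%, 3.80% and 6.86%. With any score above 0 at the later stage, the small RNA share was 57.7% at MII, 68.3% at 8-cell, 70.8% at 16-cell, 76.4% at morula and 77.5% at blastocyst. All GV-called sites then stood at 38.9%, 9.92%, 6.41%, 4.86% and 8.35%. For DRACH contexts the small RNA share was 49.1% at 4-cell, 66.0% at 8-cell, 69.8% at 16-cell and 73.6% at morula. All DRACH sites stood at 25.8%, 11%, 7.69% and 5.32% there. At MII it was 50.9% against 45.3% of all DRACH sites, a smaller gap than 51.4% against 34.1% over all contexts. The remaining sites, outside box C/D, box H/ACA and snRNA, include unnamed snoRNAs. Where only those with a family symbol were kept, they stood at 76.3% at MII and 67.8% at 4-cell, against 63.7% and 56.6% with all of them. The other 89 of 124 values stayed within 1.5 times a count, or within the interval of a share or the quartiles of a score, among them all 15 without the gene with most sites and all 8 counts of genes. The cause of the moves was not tested, except that a higher score or the DRACH motif keeps fewer sites by construction. Leaving out a replicate could not be run, since the table has 1 value per stage. No paired analysis was possible because the columns carry no replicates. Depth is unknown, so a score of 0 limits nothing.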
